A study of Homo sapiens with 6 samples.

Results

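The genes of cholesterol and fatty acid synthesis were examined in LX-2 cells, a human line derived from hepatic stellate cells, after silencing of OGT, the only enzyme known to place O-GlcNAc, a single sugar, on nuclear and cytosolic proteins. The 35 genes were taken by symbol from the 16907 in the count files. They comprised 5 genes of the SREBP system, 19 of the sterol arm, 8 of the fatty acid arm and 3 targets of the liver X receptors (LXR). All 35 entered the fit over 14853 genes. The siRNAs, siControl or siOGT, were used at 20 nM for 72 h, with 3 libraries per group that form 3 pairs by replicate number. LX-2 is a single immortalised line grown with serum. Per the study's resource list, siOGT was a commercial pool of siRNAs and siControl a negative control siRNA from another supplier, so silencing of OGT and a difference between the reagents cannot be told apart.

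Cholesterol is built from acetyl-CoA through mevalonate, squalene and lanosterol, and fatty acids are built from the same acetyl-CoA through malonyl-CoA. Most enzymes of both routes are transcribed under SREBP-2 and SREBP-1, membrane-bound factors encoded by SREBF2 and SREBF1. When sterols are scarce the escort protein SCAP carries them from the endoplasmic reticulum to the Golgi, where they are cut free, and when sterols are plentiful the INSIG proteins hold SCAP back. LXR answers to oxidised sterols and turns on export of cholesterol as well as SREBF1. Quiescent stellate cells store retinyl esters in lipid droplets and lose them as they become myofibroblasts.

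OGT itself was silenced in each pair, from 177, 137 and 121 CPM (reads of the gene as a share of the library, scaled by library total and TMM factor) in siControl to 39.9, 27.0 and 29.2 CPM in siOGT (log2 fold change -2.18, SE 0.073, edgeR adjusted p-value 2.71e-12). Libraries held between 25996770 and 27966801 expected counts. Of 15 markers of stellate cells and myofibroblasts 13 were tested, and their summed level lay between 8306 and 9977 CPM in siControl and between 7913 and 9823 CPM in siOGT. Within this sum COL1A1, COL1A2, COL3A1 and PDGFRB were called lower (log2 fold changes -0.39, -0.32, -0.64 and -0.32) and TAGLN and SPARC higher (0.37 and 0.44). DES and LUM were below 1 CPM in every library, and LRAT and DCN were not among the genes tested. Of 10 hepatocyte markers 4 were tested, ALB not among them, and they summed to between 6.55 and 9.35 CPM in siControl and 8.26 and 12.8 CPM in siOGT, with CYP2E1 called higher (log2 fold change 0.74). Of 7 macrophage and leukocyte markers 5 were tested, with sums between 132 and 164 CPM in siControl and 178 and 209 CPM in siOGT; CD68 made up most of this and was called higher, and PTPRC was below 1 CPM. The endothelial markers, 4 of 6 tested, summed to between 3.29 and 7.86 CPM in siControl and 3.00 and 5.87 CPM in siOGT, with VWF called lower (log2 fold change -0.93), and the cholangiocyte markers, 3 of 5 tested and 0 called by edgeR (1 at an unadjusted p under 0.05), summed to between 88.6 and 128 CPM and 91.4 and 129 CPM. The markers given as higher or lower were picked because they were called. The part of these cell markers in the results was not tested.

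The second pair stood apart for these genes. Of the 35 members, 32 were highest in siControl 2 among the siControl libraries and 33 in siOGT 2 among the siOGT libraries, whereas over all genes tested these shares were 34.3% and 34.6%. Summed over all members, the level was 6358, 9088 and 6588 CPM in siControl 1 to 3, and 5047, 8376 and 5604 CPM in siOGT 1 to 3. Of the variance of the members' log2 CPM, 62.3% lay between replicate numbers and 24.1% between groups, against 51.0% and 33.6% in the 12373 genes that averaged 1 CPM or more. The members, unlike those genes, include ABCG1, which averaged below 1 CPM. The share between siControl and siOGT was 25.6% for the sterol arm, 32.5% for the fatty acid arm and 41.4% for the SREBP system. For the LXR targets, which hold ABCG1, it was 3.26%, with 42.9% residual. The CPM of the 2 groups did not overlap for 5 of the 35 members, against 23.9% of all genes tested, while the log2 ratio had the same sign in all 3 pairs for 23 members, against 54.0% of all genes tested. The comparison was made within pairs, with the replicate number as a block, as in the study's own model.

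**Figure D1:**
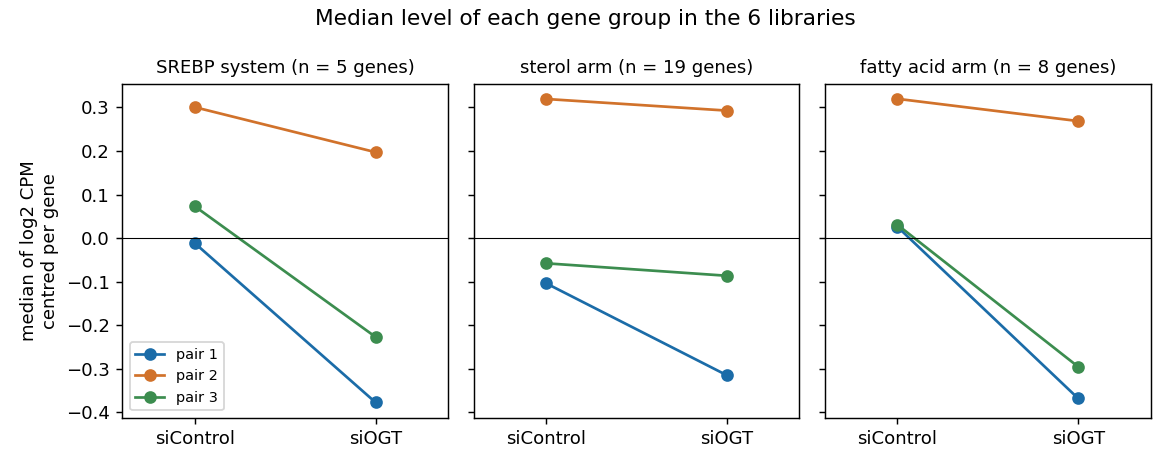
The median of log2 CPM, centred per gene on its mean over the 6 libraries, is plotted for the SREBP system, the sterol arm and the fatty acid arm in siControl and siOGT, with a line for each pair. The second pair lies above the others in both groups, and for the fatty acid arm the medians fall from 0.026, 0.32 and 0.031 in siControl to -0.37, 0.27 and -0.30 in siOGT.

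A gene is called where the Benjamini-Hochberg adjusted p-value of the edgeR quasi-likelihood test over all genes was at most 0.05. With this rule 25.4% of all genes tested were called, 12.7% higher and 12.7% lower in siOGT. Among the 35 members 19 were called, 5 higher and 14 lower. The fatty acid arm had 5 of 8 members called lower and 0 higher, and the sterol arm 6 of 19 lower and 3 higher. The median log2 fold change was -0.32 for the fatty acid arm and -0.13 for the sterol arm, against 0.0068 over all genes tested. All 8 fatty acid genes and 13 of the 19 sterol genes had a log2 fold change below 0. Summed over genes, the sterol arm had 1906, 2599 and 1932 CPM in siControl and 1589, 2594 and 1860 CPM in siOGT, and the fatty acid arm 3367, 5118 and 3576 against 2519, 4547 and 2810 CPM. A difference between the arms was not tested.

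These calls rest on the pairing. Without the replicate block edgeR called 0 members, with 10 at an unadjusted p under 0.05, and 0.875% of all genes. DESeq2 called 17 members with the block and 2 without it, HMGCS1 and ELOVL6, where it called 16.3% and 5.72% of all genes. Without pair 1 the count was 10, of which 2 were higher, and without the second pair, which stood apart, it was 17, of which 1 was higher, against 12.5% and 22.5% of all genes tested in these fits.

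**Figure D2:**
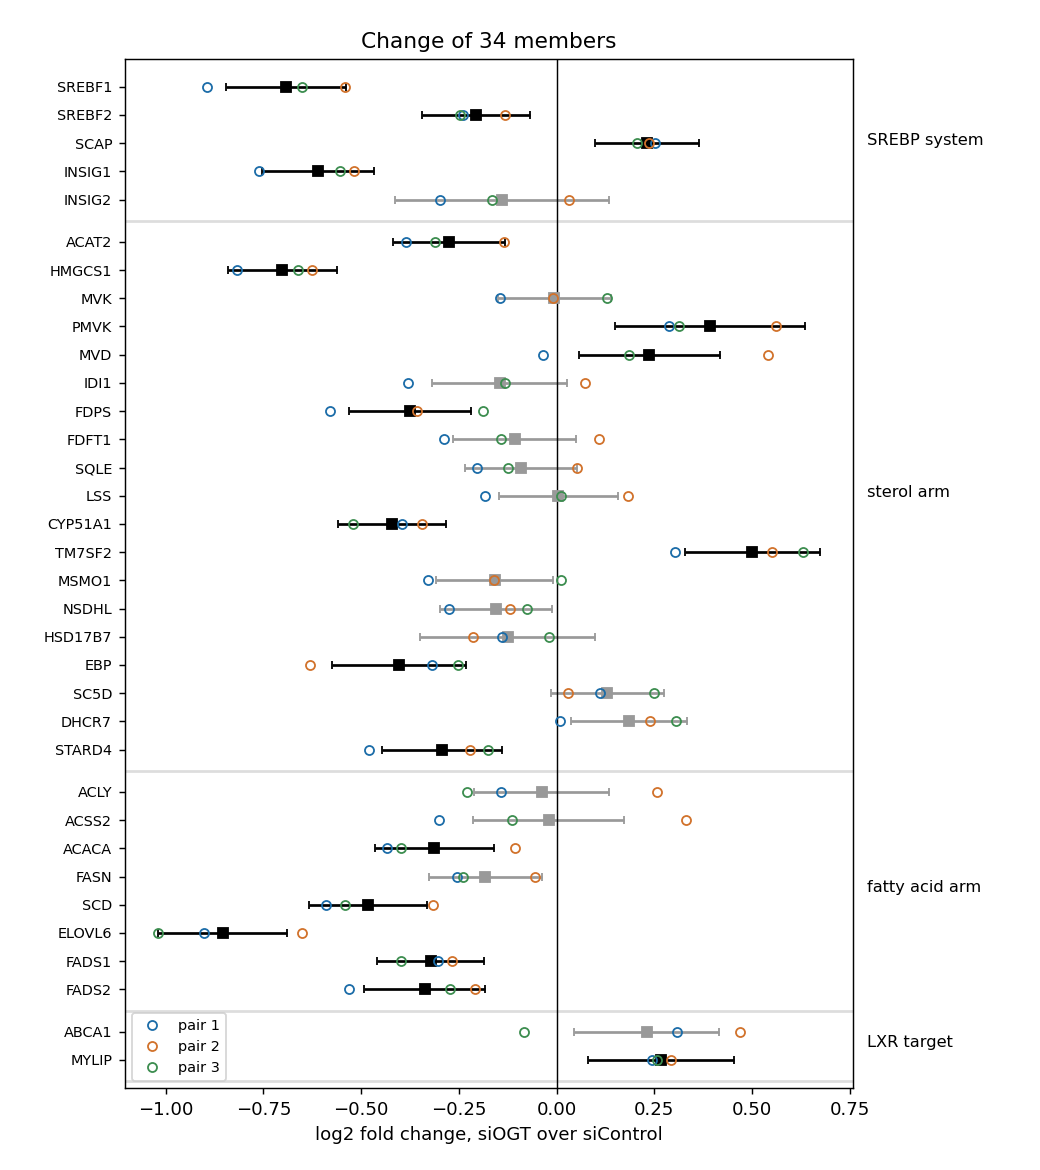
Squares give the log2 fold change of siOGT over siControl of 34 members with its 95% confidence interval, black where called and grey where not, and open circles give the log2 ratio in each of the 3 pairs. ABCG1 is left out for its low counts. All fatty acid genes have a square below 0, from -0.85 for ELOVL6 to -0.021 for ACSS2, and the sterol genes spread from -0.70 for HMGCS1 to 0.50 for TM7SF2.

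In the SREBP system, transcripts of both factors and of INSIG1 fell and that of the escort SCAP rose. SREBF1 (chromosome 17, 17810399 to 17837002, minus strand, hg38) encodes SREBP-1, which mainly serves fatty acid synthesis. It had 84.6, 142 and 88.3 CPM in siControl and 45.5, 97.3 and 56.2 CPM in siOGT. The siOGT library of the second pair lay above the siControl libraries of the others, so the groups overlapped, while each pair fell. The log2 fold change was -0.69 (SE 0.073, edgeR adjusted p-value 5.24e-06), a level 38.1% lower. It remained called without any 1 pair, and lost its call without the block (0.246). The isoforms SREBP-1a and SREBP-1c come from the same gene and are not separated in these counts.

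INSIG1 (chromosome 7, 155297776 to 155310235, plus strand), which retains SCAP and is itself a classical SREBP target, had 213, 321 and 206 CPM in siControl and 126, 224 and 140.1 CPM in siOGT. Its log2 fold change was -0.61 (SE 0.068, edgeR adjusted p-value 9.11e-06) and its log2 ratios in the 3 pairs were -0.76, -0.52 and -0.55. INSIG2, its paralog, was scarce, between 5.03 and 7.84 CPM, and was not called (log2 fold change -0.14, 95% confidence interval -0.41 to 0.13).

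SREBF2 (chromosome 22, 41833105 to 41907306, plus strand), which encodes the factor of sterol synthesis, moved less than SREBF1. It had 497, 617 and 508 CPM in siControl and 421, 563 and 428 CPM in siOGT, a level 13.3% lower (log2 fold change -0.21, edgeR adjusted p-value 0.0291). SCAP (chromosome 3, 47413681 to 47477126, minus strand) went the other way, from 226, 235 and 214 to 269, 277 and 246 CPM, and its groups did not overlap, as for 23.9% of all genes tested. Its log2 fold change was 0.23 (SE 0.064, edgeR adjusted p-value 0.0127). The calls of SREBF2 and SCAP were lost without pair 1 (0.262 and 0.162), and that of SCAP also without pair 2 (0.0504).

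**Figure D3:**
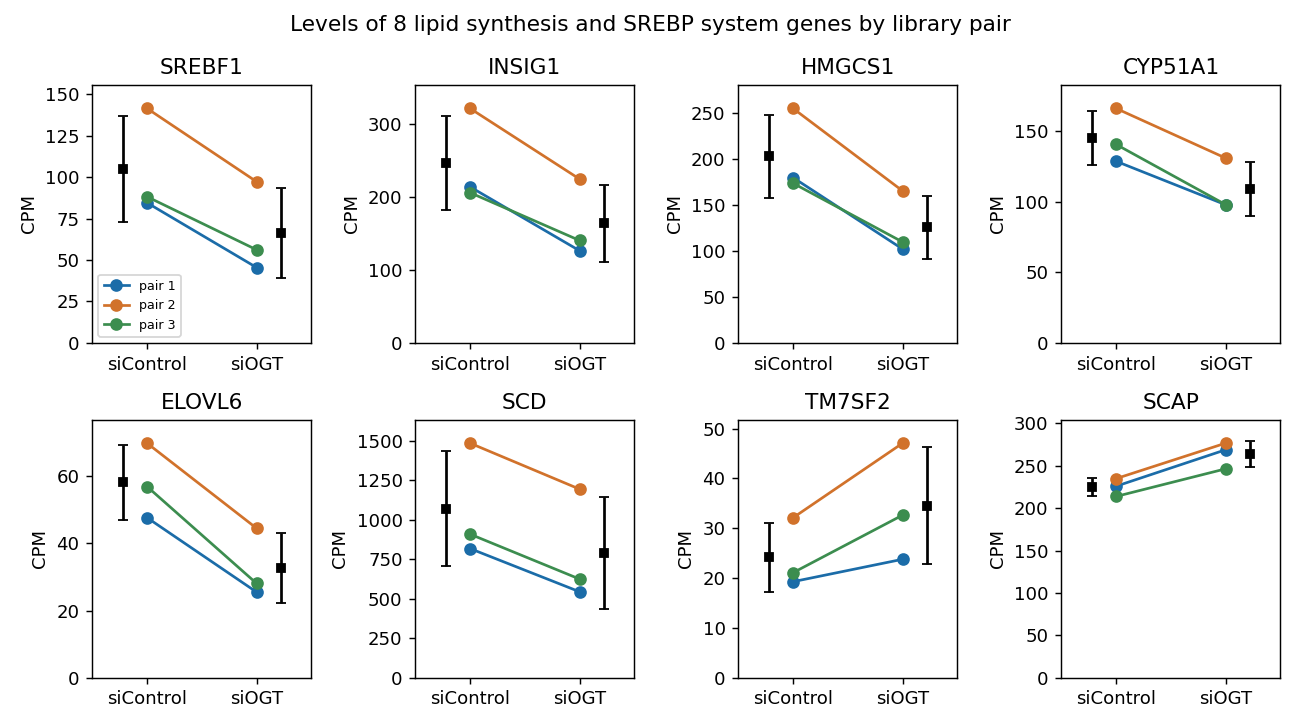
CPM of 8 members is plotted per library, with a coloured line joining siControl and siOGT of a pair and black squares with bars for the mean and SD of 3 libraries. Each line falls for SREBF1, INSIG1, HMGCS1, CYP51A1, ELOVL6 and SCD and rises for TM7SF2 and SCAP, and for SCD the second pair (1486 and 1194 CPM) lies above both other pairs.

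Within the sterol arm the lowered genes lay at several points of the route, and the neighbouring steps often did not pass the test. At the entry, HMGCS1 (chromosome 5, 43287470 to 43313512, minus strand), which joins acetyl-CoA and acetoacetyl-CoA to HMG-CoA, fell most. It had 179.9, 255 and 174 CPM in siControl and 102, 165 and 109.8 CPM in siOGT, with no overlap between groups. The log2 fold change was -0.70 (SE 0.066, edgeR adjusted p-value 1.76e-06), or 38.5% lower, and DESeq2 without the block still called it (0.0130). ACAT2, the cytosolic thiolase that supplies acetoacetyl-CoA, fell from 98.5, 132 and 110.3 to 75.4, 119.9 and 89.0 CPM (log2 fold change -0.28, edgeR adjusted p-value 0.00641). Its exons share 17.2% of their bases with TCP1, which is read from the other strand. The libraries were strand-specific.

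The mevalonate steps did not follow HMGCS1. MVK, mevalonate kinase, had 74.3, 119.8 and 100.2 CPM in siControl and 67.2, 119 and 109.6 CPM in siOGT, a log2 fold change of -0.0061 with a 95% confidence interval of -0.15 to 0.14. PMVK, which adds the next phosphate, rose from 7.78, 7.66 and 7.31 to 9.51, 11.3 and 9.10 CPM without overlap (log2 fold change 0.39, edgeR adjusted p-value 0.0188). MVD, the decarboxylase that makes isopentenyl diphosphate, had 60.3, 98.0 and 77.3 CPM in siControl and 58.8, 143 and 88.0 CPM in siOGT.

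The pairs of MVD thus differed, with log2 ratios of -0.035, 0.54 and 0.19, and its call (log2 fold change 0.24, edgeR adjusted p-value 0.0494) was lost without pair 2 (0.613) or pair 3 (0.0624). The call of PMVK was lost without pair 1 (0.0562) or pair 2 (0.147). Neither gene was called by DESeq2 with the block (0.126 for PMVK and 0.109 for MVD).

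Of the isoprenoid and squalene enzymes among the members, FDPS alone was called. FDPS, which makes farnesyl diphosphate, had 85.6, 114 and 74.1 CPM in siControl and 57.2, 89.0 and 65.0 CPM in siOGT (log2 fold change -0.37, SE 0.074, edgeR adjusted p-value 0.00141). Each pair was lower, by -0.58, -0.36 and -0.19, and without pair 1 the call was lost (0.0599).

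The isomerase IDI1, the squalene synthase FDFT1, the epoxidase SQLE and the cyclase LSS, which closes the ring to lanosterol, were not called, with log2 fold changes of -0.14, -0.11, -0.091 and 0.0047. Each of these had a positive log2 ratio in pair 2, of 0.074, 0.11, 0.052 and 0.18, and a negative one in pair 1, of -0.38, -0.29, -0.20 and -0.18. SQLE, for example, had 121, 159 and 127 CPM in siControl and 106, 165 and 116 CPM in siOGT, and LSS had 225, 292 and 194 against 198, 332 and 196 CPM. IDI1 was called without pair 2 (log2 fold change -0.26, adjusted p-value 0.0362).

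Beyond lanosterol, 2 genes fell and 1 rose. CYP51A1 (chromosome 7, 92084987 to 92134803, minus strand), the lanosterol demethylase, had 129, 166 and 141 CPM in siControl and 97.9, 131 and 98.0 CPM in siOGT. The log2 fold change was -0.42 (SE 0.065, edgeR adjusted p-value 1.84e-04), and the 3 pairs were alike, at -0.40, -0.34 and -0.52.

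EBP (chromosome X, 48521799 to 48528716, plus strand), the sterol isomerase, fell from 35.9, 48.3 and 40.2 to 28.8, 31.2 and 33.7 CPM without overlap (log2 fold change -0.40, SE 0.081, edgeR adjusted p-value 0.00162). TM7SF2 (chromosome 11, 65111845 to 65116384, plus strand), a sterol reductase whose step can also be done by the lamin B receptor, rose from 19.3, 32.1 and 21.1 to 23.8, 47.1 and 32.6 CPM. This was the highest log2 fold change of the members (0.50, SE 0.082, edgeR adjusted p-value 2.77e-04), and the gene remained called without any 1 pair. LBR, the gene of that receptor, was called lower (log2 fold change -0.24, edgeR adjusted p-value 0.0133), a call lost without pair 1; LBR was chosen after its values were seen.

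The remaining late genes were not called. MSMO1, NSDHL and HSD17B7, which together remove the methyl groups at carbon C-4, had log2 fold changes of -0.16, -0.15 and -0.13. MSMO1 had 113, 179 and 122 CPM in siControl and 89.8, 159.8 and 123 CPM in siOGT, with a log2 ratio of 0.011 in the third pair. SC5D, the desaturase, and DHCR7, a late reductase, had 0.13 and 0.19, with 95% confidence intervals of -0.014 to 0.27 and 0.036 to 0.33. DHCR7 had 266, 428 and 289 CPM in siControl and 267, 505 and 357 CPM in siOGT. Without pair 3 MSMO1 (0.0114) and NSDHL (0.0491) were called lower, and scaled by library totals alone DHCR7 was called higher (0.0400).

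STARD4, a carrier that moves cholesterol between membranes, fell from 69.6, 68.0 and 55.6 to 49.9, 58.3 and 49.2 CPM (log2 fold change -0.29, edgeR adjusted p-value 0.00723). Each pair was lower and the groups overlapped. The calls of STARD4 and ACAT2 were lost without pair 1 (0.180 and 0.135).

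In the fatty acid arm ELOVL6, SCD, FADS1, FADS2 and ACACA fell, and FASN, ACLY and ACSS2 were not called. ELOVL6 (chromosome 4, 110045846 to 110199199, minus strand), which elongates palmitate, had 47.7, 69.8 and 56.9 CPM in siControl and 25.5, 44.5 and 28.0 CPM in siOGT, with no overlap. At 44.7% lower, its log2 fold change was the lowest of the members (-0.85, SE 0.079, edgeR adjusted p-value 1.30e-06). Its call was lost without the block in edgeR (0.0940) and held in DESeq2 without the block (0.00365). Only 1 of its 6 expected counts was exactly whole as deposited, so part of its reads had been divided with other genes. Other members with values not whole were FDFT1 and SC5D (2 whole each) and CYP51A1, FADS1 and HSD17B7 (5 whole each).

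SCD (chromosome 10, 100347233 to 100364826, plus strand), the desaturase that makes oleate, had 818, 1486 and 909 CPM in siControl and 544, 1194 and 624 CPM in siOGT. Each pair was lower, by log2 ratios of -0.59, -0.32 and -0.54, and the log2 fold change was -0.48 (SE 0.072, edgeR adjusted p-value 1.21e-04). The spread between pairs was wider than the change, and without the block the adjusted p-value was 0.462.

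FADS1 and FADS2, desaturases of polyunsaturated fatty acids with overlapping genes, both fell. FADS2 had 1006, 1845 and 1153 CPM in siControl and 696, 1596 and 954 CPM in siOGT (log2 fold change -0.34, edgeR adjusted p-value 0.00289). FADS1 had 261, 327 and 269 against 212, 272 and 204 CPM (log2 fold change -0.32, edgeR adjusted p-value 0.00158). On chromosome 11, FADS1 lies within the interval of FADS2 in the annotation used, and the genes share 490 exonic bases on opposite strands.

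ACACA, the carboxylase that makes malonyl-CoA, fell from 169, 185 and 159 to 125, 172 and 120.4 CPM (log2 fold change -0.31, edgeR adjusted p-value 0.00419). Without pair 1 the calls of ACACA and FADS2 were lost (0.106 and 0.163). FASN, the synthase that builds palmitate, had 639, 756 and 609 CPM in siControl and 536, 728 and 516 CPM in siOGT. It was lower in 3 of 3 pairs and just missed the threshold in edgeR (log2 fold change -0.18, adjusted p-value 0.0599), whereas DESeq2 with the block called it (0.0397).

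ACLY and ACSS2, which make cytosolic acetyl-CoA from citrate and acetate, had log2 fold changes of -0.038 and -0.021. ACLY had 378, 389 and 368 CPM in siControl and 342, 464 and 314 CPM in siOGT. The pairs differed in sign, ACLY having log2 ratios of -0.14, 0.26 and -0.23 and ACSS2 of -0.30, 0.33 and -0.11. In all 8 fatty acid genes the log2 ratio of pair 2 was the highest of the 3, as for 35.3% of all genes tested. Without that pair 6 of the 8 were called lower, FASN being the addition, and the median log2 fold change was -0.38.

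Of the LXR targets, MYLIP, a ubiquitin ligase acting on lipoprotein receptors, had 13.6, 16.2 and 14.2 CPM in siControl and 16.1, 19.8 and 17.0 CPM in siOGT and was called higher (log2 fold change 0.27, edgeR adjusted p-value 0.0352). This call was lost without any 1 of the pairs (0.136, 0.134 and 0.0733) and with DESeq2 (0.179). ABCA1, the transporter that loads cholesterol onto apolipoprotein A-I, had 45.0, 32.4 and 43.2 CPM in siControl and 55.8, 44.9 and 40.8 CPM in siOGT. It was higher in 2 of 3 pairs and not called (log2 fold change 0.23, adjusted p-value 0.0641), but it was called without pair 3 (0.00250). ABCG1, a further sterol exporter, had 3, 8 and 0 counts in siControl and 0, 7 and 5 in siOGT, and a difference was not detectable at this depth.

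Levels of different genes were compared as mean CPM in siControl per kilobase of the canonical GENCODE transcript. FADS2 was the most abundant member at 432 CPM per kilobase, followed by SCD (204), DHCR7 (125), FDFT1 (123) and SREBF2 (103). SREBF1 reached 21.4, HMGCS1 37.9, ELOVL6 8.85 and ABCA1 3.86 CPM per kilobase.

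Other genes of these pathways were counted from 4 lists, to be read beside the 25.4% of all genes that were called. Of 23 further genes listed with fatty acid synthesis, not all of which act in synthesis itself, 8 were called lower and 0 higher. ACACB, the mitochondrial acetyl-CoA carboxylase, fell from 944, 1131 and 1311 to 655, 916 and 714 expected counts (log2 fold change -0.58, edgeR adjusted p-value 8.95e-05), and SCD5, a second stearoyl-CoA desaturase, from 62.7, 67.7 and 57.8 to 42.6, 50.1 and 44.2 CPM (log2 fold change -0.46, edgeR adjusted p-value 1.35e-04). Neither gene had overlapping groups.

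Of 18 further genes of sterol synthesis and handling, 5 were called lower and 3 higher. GRAMD1C, a sterol transfer protein, fell from 85, 83 and 95 to 54, 67 and 44 expected counts (log2 fold change -0.69, edgeR adjusted p-value 0.0229). GRAMD1C, at between 1.64 and 3.40 CPM, was no longer called without pair 1 or pair 3, nor by DESeq2 with the block. Of 15 genes of SREBP and LXR machinery 2 were higher and 2 lower, a share near that of all genes, and of 5 further LXR targets 2 were lower and 0 higher. The median log2 fold changes of these 4 lists were -0.17, -0.0027, -0.025 and -0.27. Of the 61 genes, 22 were called in all, 6 without pair 1, where 12.5% of all genes were, and 0 without the replicate block in edgeR, where 12 had an unadjusted p under 0.05.

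Promoter sequence was examined because sterol genes are known to be bound by SREBP beside the factor NF-Y. RefSeq windows (GRCh38.p14) from 250 bases before to 50 bases after the start site were found for 30 of the 35 members. ACAT2, FDFT1, SQLE, FASN and ABCG1 had none in the table. The core of the sterol regulatory element was searched as TCACNCCAC, the NF-Y box as CCAAT and the E-box as CACGTG, on both strands and with overlaps counted. The stretches of 4 members before the start site are shown, 5′ to 3′ on the gene's strand, with matches in capitals. Only bases upstream of both the RefSeq and the GENCODE start are printed, so the stretches of INSIG1 and HMGCS1 end 102 and 100 bases short of the RefSeq start, and the E-box of INSIG1 and a second NF-Y box of HMGCS1, which lie in that gap, are not printed. SREBF2 is shown as the member with the sterol element core, INSIG1 and HMGCS1 as lowered genes, and MSMO1 as a gene with several NF-Y boxes that was not called.
SREBF2, chr22:41832905-41833104, plus strand: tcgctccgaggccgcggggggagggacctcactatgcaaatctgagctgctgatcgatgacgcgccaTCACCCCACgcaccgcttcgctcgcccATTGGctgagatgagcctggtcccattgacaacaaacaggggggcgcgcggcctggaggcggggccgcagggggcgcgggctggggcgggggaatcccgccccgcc
INSIG1, chr7:155297628-155297775, plus strand: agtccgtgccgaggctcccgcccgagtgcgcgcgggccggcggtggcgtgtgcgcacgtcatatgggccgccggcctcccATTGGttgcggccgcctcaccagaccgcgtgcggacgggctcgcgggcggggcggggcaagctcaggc
HMGCS1, chr5:43313513-43313662, minus strand: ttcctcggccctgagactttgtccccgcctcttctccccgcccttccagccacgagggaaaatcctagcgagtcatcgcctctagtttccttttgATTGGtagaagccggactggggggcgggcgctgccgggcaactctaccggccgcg
MSMO1, chr4:165327467-165327666, plus strand: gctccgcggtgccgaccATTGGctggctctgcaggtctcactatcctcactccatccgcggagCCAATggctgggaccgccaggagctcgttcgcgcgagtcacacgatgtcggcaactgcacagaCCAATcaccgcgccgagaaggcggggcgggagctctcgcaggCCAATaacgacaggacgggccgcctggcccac

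The NF-Y box occurred in a window of 22 of the 30 members and of 14 of the 16 sterol arm genes with a window, PMVK and CYP51A1 being the exceptions, against 39.7% of 27305 genes in the table. At least 2 boxes were found for 11 of these 16, against 12.9% of all genes. The shares of all genes cover the 27305 genes with a window, not only the 14853 genes tested for expression. Of the 7 fatty acid genes with a window 5 had a box, and ELOVL6 and FADS1 had none. SREBF1 had no match to any of the motifs in its 1 window, and sequence outside that window was not searched. The sterol element core in this spelling matched SREBF2 alone, 133 bases before its start site, and 1.39% of all genes. An E-box was found for 5 members, SCAP, INSIG1, LSS, SC5D and ABCA1, and for 8.77% of all genes. Boxes were present in genes that fell (HMGCS1, SCD), in genes that rose (TM7SF2, MVD) and in genes not called (MVK, MSMO1), and genes that fell without a box included CYP51A1 and ELOVL6.

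**Figure D4:**
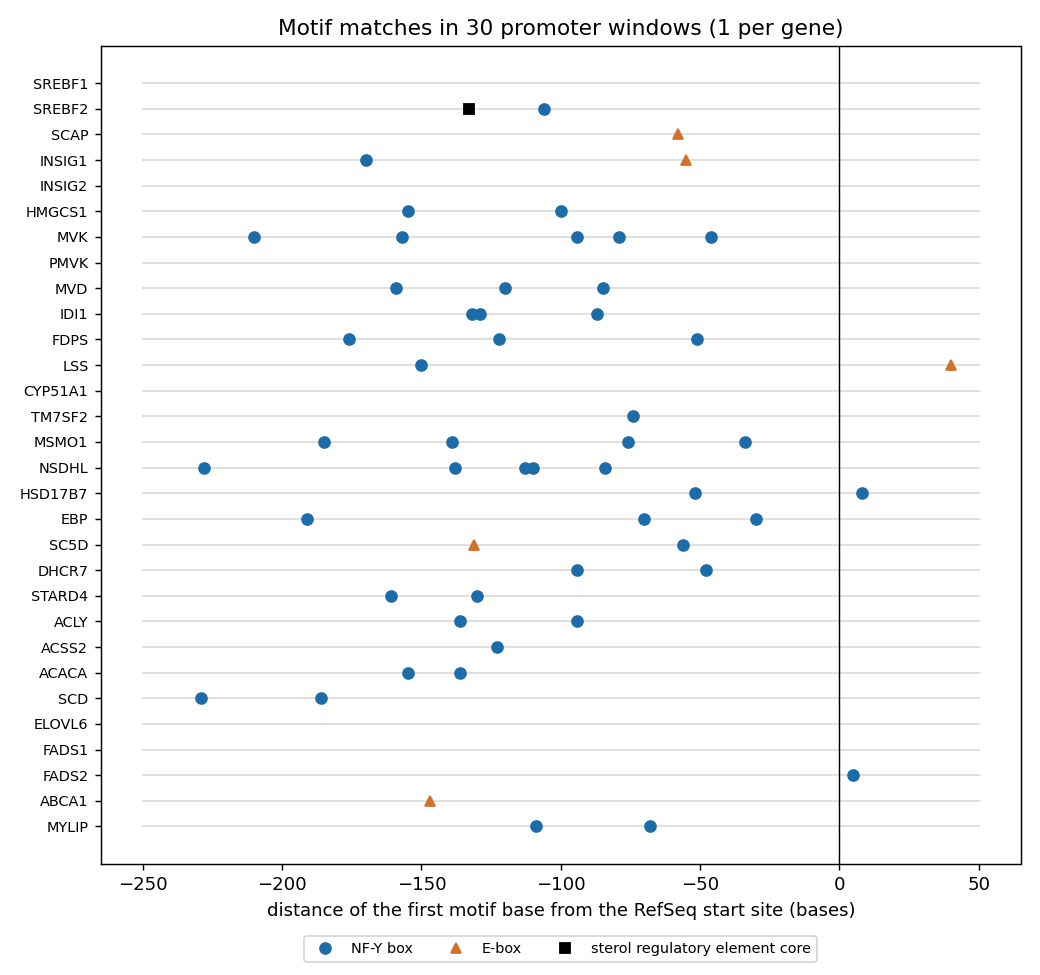
Matches to the NF-Y box, the E-box and the sterol regulatory element core are plotted for 30 members by distance in bases from the RefSeq start site, in 1 window per gene, the window with the most matches where a gene has several. MVK and NSDHL have 5 NF-Y boxes each, and 8 genes, among them SREBF1, CYP51A1 and ELOVL6, have none.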

How the data were processed

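Values are those of 6 RNA-seq libraries. Per the study's methods, the authors aligned paired-end, strand-specific reads to hg38 with Bowtie2 2.3.5.1 and deposited RSEM 1.3.1 expected counts per gene, not normalized, in which reads matching several genes are divided. For 29 of the 35 members all 6 values were exactly whole as deposited. A further deposited table holds the authors' own comparison (mean counts, fold changes, p-values) and was not used.

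Expected counts were rounded, genes with a total below 10 were removed (2054 genes), libraries were scaled with TMM, and a model with group and replicate number as a block was fitted to the remaining genes in edgeR 4.0.16 (R 4.3.3), with a quasi-likelihood F test, which is two-sided. Standard errors and 95% confidence intervals were derived from F. For the log2 ratio of a pair, 2 prior counts were added. The test was tried on simulated counts with known changes. The simulated pairs differed in level and not in the size of the change, so this trial does not bear on differences between pairs. The replicate numbers pair the samples: deviations from group means correlated between same-numbered libraries by 0.69, 0.53 and 0.33 across 12373 genes. The labels call the replicates biological and the study calls them independent experiments.

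Alternatives were another normalization, another filter, a stricter threshold, DESeq2 1.42.0, no block and each pair left out. Every member is named. From the other pathway lists a gene is named where called with an absolute log2 fold change of at least 0.4, at most 4 per list; LBR was named after its values were seen. Members and lists were chosen with earlier results of these data known. Coordinates are from GENCODE 44 on hg38 and promoter sequences from RefSeq.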

Additional observations from a re-analysis of the deposited data

How the results depend on the processing

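OGT stayed called under each alternative run. Without the replicate block edgeR called 130 of all genes, 0 of the 35 members, 0 sterol, 0 fatty acid, 0 SREBP system and 0 LXR genes and 0 other pathway genes, with 10, 5, 2, 3, 0 and 12 at an unadjusted p under 0.05. The block lowered the common dispersion from 0.0193 to 0.0045. DESeq2 without the block, added after the data were seen, gave 849, 2, 1, 1, 0, 0 and 3. DESeq2 with the block called 2415 genes, 17 members and 0 LXR targets (0 at an unadjusted p under 0.05). With a stricter threshold of 0.01 the counts were 2083 genes, 2 of the SREBP system, 0 LXR targets (2 at an unadjusted p under 0.05) and 11 other pathway genes. With library totals alone or without a filter 2 LXR targets were called.

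Leaving out 1 pair at a time gave from 1803 to 3439 genes, 10 to 20 members, 5 to 10 sterol, 3 to 6 fatty acid, 2 to 4 SREBP system, 0 to 1 LXR and 6 to 20 other pathway genes, the lowest counts being those without pair 1, for LXR also without pair 2. For why pair 1 carried so many calls the cause was not tested. The medians of the sterol and fatty acid arms stayed below 0 throughout, from -0.17 to -0.037 and from -0.38 to -0.25 in these fits.

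No called member changed sign. Among members not called other than ABCG1, for which no fold is given, the sign of the log2 fold change turned for MVK (0.0078 without the block in edgeR, 0.0048 in DESeq2, 0.016 with library totals) and ACSS2 (0.024, 0.020 and 0.0016). In fits leaving out a pair MVK ranged from -0.080 to 0.058, ACSS2 from -0.21 to 0.11, LSS from -0.088 to 0.096 and ACLY from -0.19 to 0.051. Of 340 comparisons of the other 34 members with an alternative, 260 kept direction and side of the threshold, 56 lost and 11 gained a call, and 13 turned. For these the cause was not tested. Depth limits ABCG1, with at most 8 counts per library.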
